A study of Mus musculus with 4 samples.

Results

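This account follows 10 genes by which macrophages take up, store and export lipid, among 24346 gene rows measured by RNA-seq in mouse bone marrow-derived mesenchymal stem/progenitor cells (mBMSCs). The genes were chosen by name, as members of the liver X receptor (LXR) pathway and of the program of lipid-associated macrophages: Nr1h3, Nr1h2, Abca1, Abcg1, Apoe, Trem2, Gpnmb, Fabp5, Plin2 and Lipa. All 10 were found and all passed the filter on low values. The cells came from the femoral marrow of wild-type C57BL/6 mice (C57BL/6J in the methods) at 3 months of age, and all samples were transfected with an siRNA, either a scrambled control (siScr, 2 samples) or siRNA against ZBP1 (siZBP1, 2 samples), and collected 72 h later. The study describes 2 siRNAs against ZBP1, and which of them each siZBP1 sample received is not given in the sources used here. The cultures had been set up by adherence, with floating cells washed off after 3 days, so marrow cells that adhere could remain. The sources used here do not say whether the duplicates came from separate mice or cultures. The spread between replicates, on which the p-values draw together with variance shared between genes, may thus be technical.

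LXRα and LXRβ, encoded by Nr1h3 and Nr1h2, are nuclear receptors that bind oxysterols and sit on DNA together with a retinoid X receptor. When sterols accumulate in a macrophage, LXR switches on the pumps ABCA1 and ABCG1, which hand cholesterol to lipoprotein particles, and apolipoprotein E, which carries it away. The cholesterol reaches these pumps from the lysosome, where the lipase encoded by Lipa splits the esters of engulfed lipoproteins, or from droplets coated by perilipin 2. TREM2, a lipid-sensing receptor, and GPNMB, a lysosomal and surface glycoprotein, mark macrophages that have taken up much lipid.

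The values are FPKM, fragment counts scaled to transcript length and to the output of each library, so that levels can be set side by side between genes. Numbers of reads were not given. The step between the lowest values gave relative depths of 1.00 to 1.87, with siZBP1 replicate 1 the shallowest sample, and no counting error was computed from them. Zbp1 itself, the target of the siRNA, was at 86.0 and 62.0 FPKM in the siScr replicates and at 11.5 and 11.6 FPKM in the siZBP1 replicates. A panel of 20 macrophage markers was detected throughout, with no marker at 0, and summed to 11958 and 12926 FPKM in the siScr samples and to 17491 and 16753 FPKM in the siZBP1 samples. The mesenchymal markers summed to 6023 and 4997 FPKM in siScr cells and to 3583 and 3617 FPKM in siZBP1 cells, a sum in which Col1a1 went from a mean of 2793 FPKM to 1160 FPKM. Of 14 tested mesenchymal markers, 6 were lower, 1 (Nt5e) was higher and 7 did not pass, among them Col1a2 and Col3a1. Of 10 adipocyte markers, 5 were listed at 0 in every sample, among them Plin1 and Cidec, and Adipoq did not exceed 0.219 FPKM. The other 4 were expressed and tested. Lpl was higher, with a mean of 226 FPKM in siScr cells and 269 FPKM in siZBP1 cells, and Pparg was lower, at 20.9 and 13.7 FPKM. Fabp4, at 94.9 and 109 FPKM, and Cebpa, at 55.4 and 60.7 FPKM, did not pass.

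Of the 10 genes, 3 rose in siZBP1 cells and 0 fell at an adjusted p under 0.05 by limma, a linear model fitted to log2(FPKM + 1) of 11959 genes with p-values adjusted over all of them by the method of Benjamini and Hochberg. Abca1, Fabp5 and Plin2 were the 3 that rose. Over all tested genes, 28.3% passed by the same rule, 13.5% as higher and 14.8% as lower. Abcg1, Trem2 and Lipa were higher and Apoe was lower at an unadjusted limma p under 0.05 only. The share of all tested genes under this looser rule was not counted. It exceeds the 28.3% that passed after adjustment, so no count of members is read from this rule. For 8 of the 10 genes the siScr and siZBP1 values lay wholly apart, as they did for 68.4% of all tested genes. The median difference of the members was 0.13 on the log2 scale, against 0.00446 for all tested genes. In bulk samples, more cells of a type and more RNA per cell cannot be told apart. The macrophage markers moved in the same direction, with 12 of 20 higher and 0 lower. Their median difference was 0.29, with a range from -0.15 for Ctss to 1.25 for Mrc1, and their part in the changes of the members was not tested. Each fit with a sample left out called fewer genes over the whole table than the fit with all samples. Smaller counts of a list in such fits, here and below, therefore cannot be read as particular to that list. Without siZBP1 replicate 1 or without siZBP1 replicate 2, the macrophage markers and every gene list below had 0 calls in either direction, save 1 gene of the lipid-associated macrophage signature, and 22 to 38 genes passed in each direction over the whole table.

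**Figure D1:**
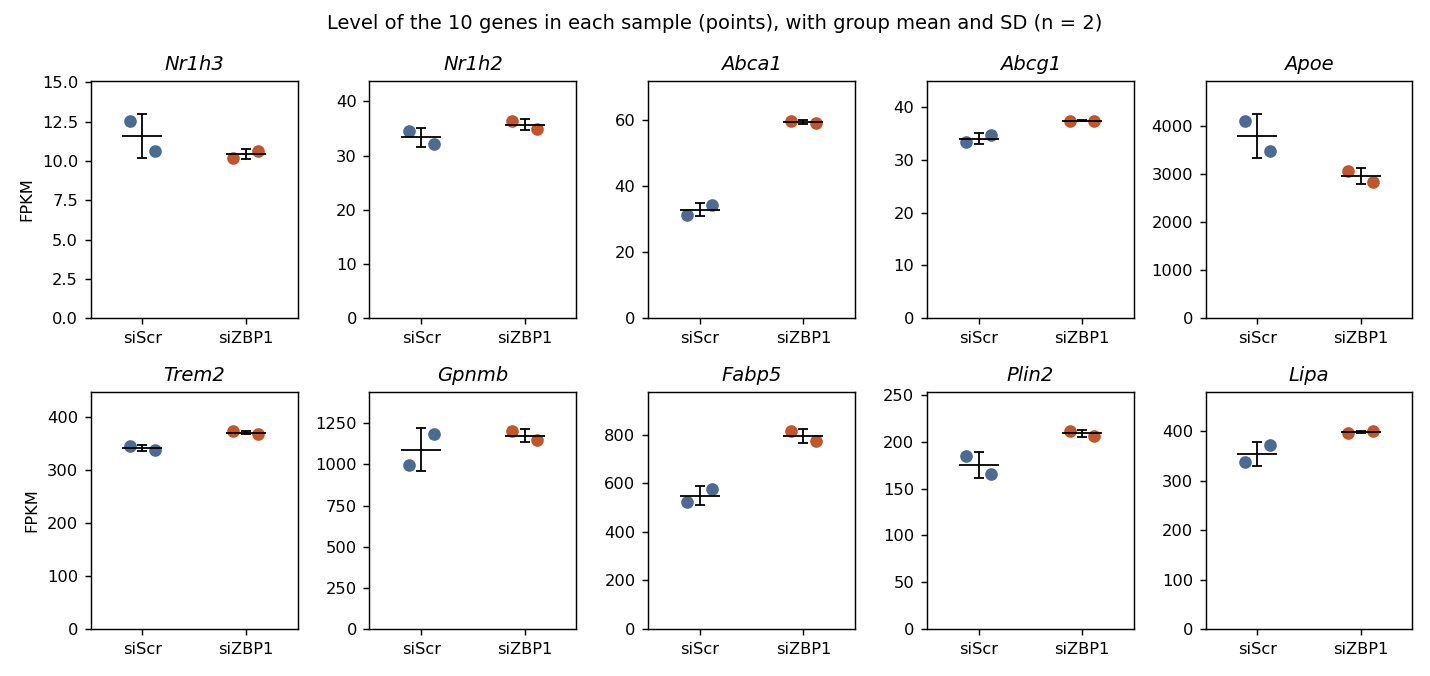
FPKM (vertical axes, each from 0) of the 10 genes in the 2 siScr and 2 siZBP1 samples; points are samples, and the black lines give the group mean and SD. Abca1 and Fabp5 show the widest gaps between groups, with Abca1 at 31.3 and 34.1 FPKM in siScr cells and at 59.7 and 59.0 FPKM in siZBP1 cells, while the groups of Nr1h3 and of Gpnmb overlap.

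By level, Apoe led the members in siScr cells with a mean of 3800 FPKM, rank 8 of all genes by mean over the samples. Gpnmb (1091 FPKM), Fabp5 (549 FPKM), Lipa (355 FPKM), Trem2 (342 FPKM) and Plin2 (175 FPKM) followed. Abcg1, Nr1h2 and Abca1 lay together at 34.0, 33.3 and 32.7 FPKM, and Nr1h3 was lowest at 11.6 FPKM. In siScr cells the replicates of Lipa and Trem2 overlapped, as did those of Abcg1 with Nr1h2 and of Nr1h2 with Abca1, so these neighbours did not differ beyond their spread. In siZBP1 cells no neighbours in the order overlapped, and Abca1, at 59.3 FPKM, stood above Abcg1 at 37.4 FPKM and Nr1h2 at 35.7 FPKM.

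The mRNAs of the receptors themselves did not pass the threshold. Nr1h3, which encodes LXRα and lies on chromosome 2 of GRCm38 from 91184061 to 91202834, was at 12.6 and 10.6 FPKM in siScr cells and at 10.2 and 10.6 FPKM in siZBP1 cells. The groups overlapped, and the log2 difference was -0.14 (95% interval -0.39 to 0.11, limma adjusted p = 0.341). Leaving out siScr replicate 1 or siScr replicate 2 moved the difference of Nr1h3 to -0.024 or -0.25. Nr1h2, which encodes LXRβ and lies on chromosome 7 from 44549616 to 44553951, was at 34.6 and 32.1 FPKM and then at 36.5 and 35.0 FPKM, a log2 difference of 0.097 (95% interval -0.052 to 0.25, limma adjusted p = 0.264). Both siZBP1 values lay above both siScr values, by a margin smaller than the gap between the siScr replicates, and the difference of Nr1h2 moved to 0.15 when siScr replicate 1 was left out and to 0.046 when siScr replicate 2 was. Nr1h2 exceeded Nr1h3 in every sample, by 2.75 and 3.03 times in siScr cells and by 3.57 and 3.29 times in siZBP1 cells. A processed pseudogene, Nr1h2-ps, is annotated and is not a row of the table, so reads of Nr1h2 may be shared with it.

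Their dimer partner Rxra was at 21.0 and 19.3 FPKM in siScr cells and at 22.7 and 21.2 FPKM in siZBP1 cells (limma adjusted p = 0.265), and Rxrb was at 16.3 and 15.1 FPKM and then at 19.7 and 17.2 FPKM (limma adjusted p = 0.130). Rxrg did not exceed 0.0799 FPKM in any sample. Among enzymes that make or break down oxysterols, the ligands of LXR, Cyp27a1 rose from 5.72 and 6.47 FPKM to 8.11 and 7.89 FPKM and Hsd3b7 from 19.1 and 20.2 FPKM to 25.5 and 26.4 FPKM (limma adjusted p = 0.0433 and 0.0117). Ch25h, which makes 25-hydroxycholesterol, was at 12.6 and 18.8 FPKM in siScr cells and at 13.2 and 13.7 FPKM in siZBP1 cells, within the siScr range. Neither Cyp27a1 nor Hsd3b7 passed without siScr replicate 1.

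The export genes split in 3 ways. Abca1, the pump that loads cholesterol onto lipid-poor apolipoprotein, lies on chromosome 4 from 53030787 to 53159895 and had the largest difference of the 10 genes. Its levels of 31.3 and 34.1 FPKM in siScr cells and of 59.7 and 59.0 FPKM in siZBP1 cells give a 1.81-fold ratio of the means and a log2 difference of 0.84 (standard error 0.056, limma adjusted p = 0.00343). Each siZBP1 sample was above each siScr sample, with a gap far wider than the spread within a group. Abca1 was also the only member whose means differed by over 1.5-fold, a size reached upward by 4.51% of tested genes and downward by 9.19%, but by 0 members. Without siZBP1 replicate 1 the log2 difference of Abca1 was 0.83 (limma adjusted p = 0.0748), and without siZBP1 replicate 2 it was 0.85 (limma adjusted p = 0.0689).

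Abcg1, which moves cholesterol to mature high-density lipoprotein, lies on chromosome 17 from 31057675 to 31117988. It was at 33.3 and 34.7 FPKM in siScr cells and at 37.4 and 37.3 FPKM in siZBP1 cells. The groups did not overlap, but the log2 difference of 0.13 did not pass the threshold (95% interval 0.015 to 0.25 before adjustment, limma adjusted p = 0.0923). Within a sample, the level of Abca1 divided by that of Abcg1 was 0.941 and 0.984 in siScr cells and 1.60 and 1.58 in siZBP1 cells. The pair thus stood near parity in control cells and apart after knockdown.

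The start of Abca1 is shown because an LXR response element of the kind called DR4, a pair of half-sites separated by 4 bases, is known from the promoter of this gene. A search of both strands for a relaxed form, the half-site NGGTNA, where N is any base, followed by 4 bases and the same half-site, found 1 match in the Abca1 window, on the strand opposite to the gene, and none in the windows of the other members that had one. Sequences came from RefSeq on GRCm38.p6, from 250 bases before to 50 bases after each start, and were at hand for 8 of the 10 genes in 11 windows. Abcg1 and Fabp5 had no window and were not searched. The motif was found in 0.718% of all 32851 promoter windows. The stricter form, with AGGTCA as each half-site, was found in 0.0152% of windows and in those of none of the members. The relaxed form leaves free the bases at which the Abca1 match departs from AGGTCA. An element in this promoter was known beforehand, so the match was not an independent outcome of the search. The second element searched was CACGTG, the core of the site that factors of the MiT/TFE family bind at lysosomal and lipid genes. It was present in 7.15% of all windows and, among the members, in those of Abca1 and Plin2. The related CATGTG was present in 14.2% of all windows and in none of those of the members. TATAAA, the letters of a TATA box, was searched as well and was present in 13.6% of all windows. Among the members it was in those of Abca1 (at -29 to -24 from the start), Apoe and Lipa. The Apoe matches lay at -96 to -91 and, on the opposite strand, at -100 to -95. That of Lipa lay at -239 to -234, also on the opposite strand. The 30 bases around each DR4 and CACGTG match are given on the strand of the gene, with the match in capitals and the start counted as 0.
Abca1 DR4, chr4:53159940-53159969, at -67 to -52 from the start: cagcgttTGACCGGTAGTAACCCcggcgct
Abca1 CACGTG, chr4:53160025-53160054, at -147 to -142 from the start: gggccatgtctcCACGTGctttctgctgag
Plin2 CACGTG, chr4:86670046-86670075, at -4 to 1 from the start: cagctgggctatCACGTGgctcggaggctt
A match of letters describes the sequence and says nothing of binding in these cells.

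Apoe, the apolipoprotein that macrophages secrete with exported cholesterol, lies on chromosome 7 from 19696109 to 19699188 and pointed the other way. It was at 4120 and 3480 FPKM in siScr cells and at 3078 and 2845 FPKM in siZBP1 cells. The groups did not overlap, although the siScr replicates differed from each other by more than the nearest samples of both groups did. The log2 difference was -0.36 (standard error 0.10, 95% interval -0.63 to -0.084) and missed the threshold (limma adjusted p = 0.0642). Under 5 of the 11 other settings that used all samples the adjusted p of Apoe was under 0.05, over a range from 0.0131 to 0.159 with limma. The log2 difference of Apoe was -0.48 without siScr replicate 2 (limma adjusted p = 0.0440) but -0.23 without siScr replicate 1 (limma adjusted p = 0.128). Without siZBP1 replicate 1 it was -0.41 and without siZBP1 replicate 2 it was -0.30 (limma adjusted p = 0.256 and 0.353). Relative to Trem2 in the same sample, Apoe was 11.9 and 10.3 times as abundant in siScr cells and 8.24 and 7.72 times in siZBP1 cells.

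**Figure D2:**
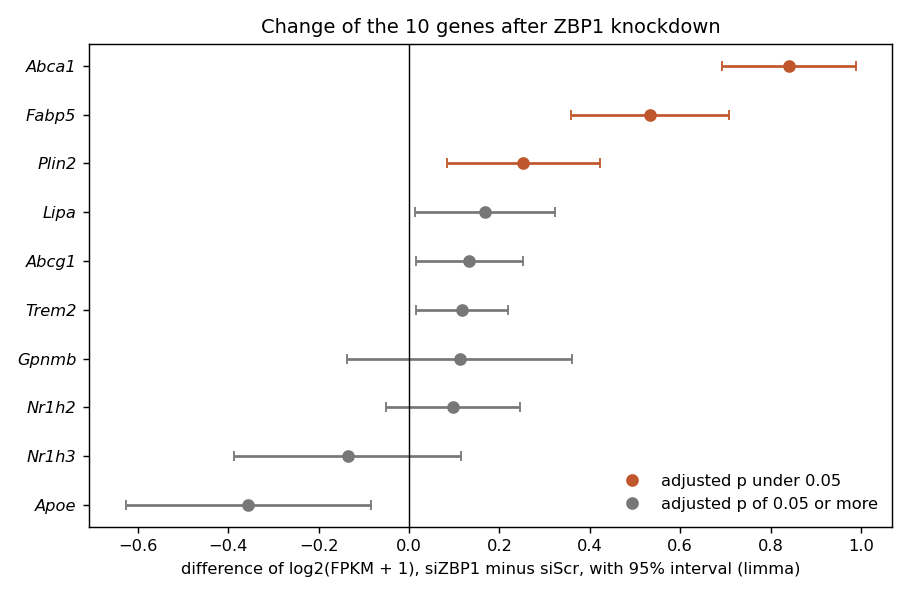
Difference of log2(FPKM + 1) between siZBP1 and siScr cells for the 10 genes, with 95% intervals from limma before adjustment (2 samples per group); orange marks an adjusted p under 0.05. Abca1 (0.84), Fabp5 (0.53) and Plin2 (0.25) passed, Apoe lies lowest at -0.36, and the intervals of Gpnmb, Nr1h2 and Nr1h3 include 0.

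Genes listed as further LXR targets, outside the members, did not move in 1 direction. They were listed by name, and whether LXR acts on each of them, Abca9 included, was not checked. Of 23 genes listed, 18 were tested, 4 rose and 3 fell, with a median log2 difference of 0.14. Without siScr replicate 1, 0 rose and 1 fell, and without siScr replicate 2, 2 rose and 3 fell. Abca9, a lipid transporter of the ABCA family, rose from 2.31 and 2.71 FPKM to 4.10 and 4.73 FPKM, with a log2 difference of 0.63 (limma adjusted p = 0.0227), and was the 1 gene called among 9 tested relatives of Abca1 and Abcg1. Arl4c, a small GTPase, rose from 65.5 and 67.7 FPKM to 86.7 and 82.6 FPKM (limma adjusted p = 0.0109). Scd2, a fatty acid desaturase, and Lpl, lipoprotein lipase, rose by 0.17 and 0.25 on the log2 scale (limma adjusted p = 0.0394 and 0.0373). Lpcat3, which builds polyunsaturated phospholipids, fell from 24.1 and 23.3 FPKM to 15.3 and 14.1 FPKM. Its log2 difference of -0.65 (limma adjusted p = 0.00583) was the lowest of the genes tested in this list. Scd1 and Fasn, of fatty acid synthesis, fell by 0.27 and 0.22 on the log2 scale (limma adjusted p = 0.0211 and 0.0370). Mylip, a ubiquitin ligase, and Srebf1, a regulator of lipid synthesis, were close to level, at 19.6 and 19.8 FPKM against 19.2 and 19.3 FPKM and at 24.7 and 25.9 FPKM against 25.6 and 25.3 FPKM, with 95% intervals that include 0 for both genes.

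Genes of sterol synthesis under SREBP2, the arm of sterol control that opposes LXR, had 9 of 19 tested genes lower and 0 higher, with a median log2 difference of -0.25. Sc5d and Mvk, both enzymes of the pathway, fell by 0.62 on the log2 scale (limma adjusted p = 0.00343 and 0.0211), and Hmgcs1, which acts near its start, fell by 0.53 (limma adjusted p = 0.0126). Without siScr replicate 1 the count of lower sterol genes was 2.

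Trem2, which lies on chromosome 17 from 48346401 to 48354147, was at 346 and 338 FPKM in siScr cells and at 374 and 369 FPKM in siZBP1 cells. The groups did not overlap, yet the log2 difference of 0.12 did not pass the threshold (95% interval 0.015 to 0.22, limma adjusted p = 0.0873). After quantile normalization it was 0.17 (limma adjusted p = 0.0474). Of 14 tested genes for partners and shedding of TREM2, 8 were higher and 0 lower, or 4 higher without siScr replicate 1, and no test compared them with Trem2 itself. Tyrobp, the adaptor that carries the TREM2 signal and a marker in the macrophage panel too, rose from 741 and 768 FPKM to 1097 and 1025 FPKM (limma adjusted p = 0.00779). Syk, the kinase that docks on the adaptor, rose from 41.9 and 43.8 FPKM to 67.6 and 62.6 FPKM (limma adjusted p = 0.00585). Within a sample, Trem2 divided by Tyrobp was 0.467 and 0.440 in siScr cells and 0.341 and 0.360 in siZBP1 cells. Adam17, a protease that sheds TREM2 from the surface, rose from 47.7 and 47.2 FPKM to 58.0 and 60.0 FPKM (limma adjusted p = 0.0110), whereas Adam10 was at 60.8 and 60.9 FPKM and then at 62.9 and 66.3 FPKM (limma adjusted p = 0.225). Ms4a6d and Ms4a7, of a membrane protein family expressed in macrophages, rose by 0.76 and 0.43 on the log2 scale (limma adjusted p = 0.00940 and 0.00700).

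Gpnmb, on chromosome 6 from 49036546 to 49070929, was at 998 and 1183 FPKM in siScr cells and at 1202 and 1148 FPKM in siZBP1 cells. The groups overlapped, and the log2 difference of 0.11 was smaller than the spread between the siScr replicates (95% interval -0.14 to 0.36, limma adjusted p = 0.424). Without siScr replicate 1 it was -0.011 (limma adjusted p = 0.889), and without siScr replicate 2 it was 0.24 (limma adjusted p = 0.0665). Gpnmb is a known target of the MiT/TFE factors, and of 7 tested genes for these factors and their regulators 3 rose and 0 fell, or 0 rose without siScr replicate 1. Tfec, a member of the family found mainly in macrophages and osteoclasts, rose from 2.75 and 3.58 FPKM to 7.56 and 6.47 FPKM (limma adjusted p = 0.0130). Mitf rose from 11.5 and 11.4 FPKM to 13.6 and 14.2 FPKM (limma adjusted p = 0.0349). Tfeb and Tfe3 did not pass, with log2 differences of 0.25 and 0.08 (limma adjusted p = 0.112 and 0.228).

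Fabp5, a carrier that shuttles fatty acids inside the cell and is abundant in foamy macrophages, lies on chromosome 3 from 10012548 to 10016607. It was at 521 and 576 FPKM in siScr cells and at 814 and 773 FPKM in siZBP1 cells. Every siZBP1 value exceeded every siScr value, and the means differed 1.45-fold, with a log2 difference of 0.53 (standard error 0.066, limma adjusted p = 0.00955). Without siZBP1 replicate 1 the difference was 0.50 (limma adjusted p = 0.117), and without siZBP1 replicate 2 it was 0.57 (limma adjusted p = 0.0944). A processed pseudogene of Fabp5, Fabp5l2, is annotated and is not a row of the table, so some reads may not be unique to the gene.

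The relatives of Fabp5 did not follow it as a family. Fabp4, the adipocyte and macrophage carrier, was at 91.2 and 98.5 FPKM in siScr cells and at 105 and 114 FPKM in siZBP1 cells (limma adjusted p = 0.0834). Fabp3, the muscle form, fell from 23.5 and 23.0 FPKM to 11.4 and 11.2 FPKM, with a log2 difference of -0.98 (limma adjusted p = 0.00262). Fabp7, the brain form, rose from 1.59 and 1.66 FPKM to 3.22 and 3.01 FPKM (limma adjusted p = 0.0160), and the 4 genes Fabp1, Fabp6, Fabp9 and Fabp12 were listed at 0 throughout. Fabp7 did not pass without siScr replicate 1, and 1 gene of the family was then lower. Fabp5 divided by Fabp3 was 22.2 and 25.0 in siScr cells and 71.7 and 69.0 in siZBP1 cells.

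Plin2, the perilipin that coats lipid droplets in most cell types, lies on chromosome 4 from 86648386 to 86670060. It was at 185 and 166 FPKM in siScr cells and at 211 and 207 FPKM in siZBP1 cells. The groups did not overlap, and the ratio of the means was 1.19, with a log2 difference of 0.25 (standard error 0.064) that lay close to the threshold (limma adjusted p = 0.0469). It lost the call with no filter on low values (limma adjusted p = 0.0692) and without a variance trend (limma adjusted p = 0.0885). It also lost it without siScr replicate 2 (log2 difference 0.17, limma adjusted p = 0.0628), without siZBP1 replicate 1 (0.24, limma adjusted p = 0.240) and without siZBP1 replicate 2 (0.27, limma adjusted p = 0.188).

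Among other droplet genes, 3 of 18 tested rose and 5 fell, or 2 rose and 1 fell without siScr replicate 1. Plin3, which is recruited to new droplets, rose from 36.4 and 37.3 FPKM to 47.7 and 46.7 FPKM (limma adjusted p = 0.00916). Nceh1, which splits cholesterol esters in macrophages, rose from 78.8 and 82.4 FPKM to 98.0 and 98.7 FPKM (limma adjusted p = 0.0135), and Acsl4 rose by 0.31 on the log2 scale (limma adjusted p = 0.0251). Plin4, a perilipin of adipocytes, fell: it was at 2.49 and 2.11 FPKM in siScr cells and at 0.180 and 0.132 FPKM in siZBP1 cells (limma adjusted p = 0.00543), and Dgat2, which completes triglyceride synthesis, fell from 2.75 and 1.87 FPKM to 0.907 and 0.878 FPKM (limma adjusted p = 0.0321). G0s2 and Mgll fell as well, by 0.84 and 0.55 on the log2 scale (limma adjusted p = 0.0405 and 0.0177), as did Acsl1 (limma adjusted p = 0.0448). Soat1, which makes the cholesterol esters that droplets of macrophages hold, was at 70.4 and 76.1 FPKM and then at 76.6 and 76.2 FPKM (limma adjusted p = 0.434). Pnpla2, which opens triglyceride breakdown, was at 22.4 and 21.8 FPKM and then at 23.9 and 23.0 FPKM (limma adjusted p = 0.302).

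Lipa, lysosomal acid lipase, lies on chromosome 19 from 34492318 to 34527474. It was at 338 and 372 FPKM in siScr cells and at 397 and 400 FPKM in siZBP1 cells. The groups did not overlap, and the log2 difference was 0.17 (95% interval 0.012 to 0.32, limma adjusted p = 0.101). The difference of Lipa was 0.24 without siScr replicate 2 (limma adjusted p = 0.0373) but 0.098 without siScr replicate 1 (limma adjusted p = 0.142). Without siZBP1 replicate 1 or siZBP1 replicate 2 it was 0.17 or 0.16 (limma adjusted p = 0.328 and 0.334). Of 19 other genes for lysosomal lipid handling, 7 rose and 0 fell, or 3 rose without siScr replicate 1. Galc, which degrades galactosylceramide, rose from 36.0 and 37.0 FPKM to 55.0 and 56.3 FPKM (limma adjusted p = 0.00373), and Pla2g15, a lysosomal phospholipase, rose from 71.1 and 71.4 FPKM to 104 and 103 FPKM (limma adjusted p = 0.00343). The sterol transporters that hand on the cholesterol freed by LIPA did not pass the threshold. Npc1 was at 61.9 and 62.8 FPKM and then at 68.1 and 69.8 FPKM (limma adjusted p = 0.0585), and Npc2 was at 282 and 280 FPKM and then at 279 and 280 FPKM (limma adjusted p = 0.892).

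Receptors that bring lipid into the cell divided, with 3 of 10 tested genes higher and 3 lower, or 2 higher and 1 lower without siScr replicate 1. Msr1, the class A scavenger receptor of macrophages, rose from 66.6 and 76.7 FPKM to 102 and 109 FPKM (limma adjusted p = 0.0134), and Cxcl16 and Stab1 rose by 0.58 and 0.38 on the log2 scale (limma adjusted p = 0.00389 and 0.0147). Cd36, a receptor for fatty acids and oxidised lipoprotein, fell from 80.1 and 71.9 FPKM to 40.3 and 48.1 FPKM (limma adjusted p = 0.0110). Colec12, a scavenger receptor, fell from 51.7 and 44.9 FPKM to 17.9 and 19.7 FPKM (limma adjusted p = 0.00343).

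Of 7 tested PPAR and related nuclear receptors, 2 rose and 3 fell. Pparg, a lipid-activated receptor that also acts on Cd36, fell from 22.8 and 19.0 FPKM to 13.7 and 13.7 FPKM (limma adjusted p = 0.0181), whereas Ppard rose from 13.7 and 13.9 FPKM to 19.2 and 17.8 FPKM (limma adjusted p = 0.0152). Nr1d2, a heme-binding repressor of the clock, fell from 20.9 and 20.7 FPKM to 9.37 and 10.3 FPKM (limma adjusted p = 0.00324). The other one lower was Nr1d1, its homologue, and the other one higher was Esrra. Without siScr replicate 1 the receptors had 1 gene higher and 2 lower, and without siScr replicate 2 they had 0 higher and 3 lower.

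**Figure D3:**
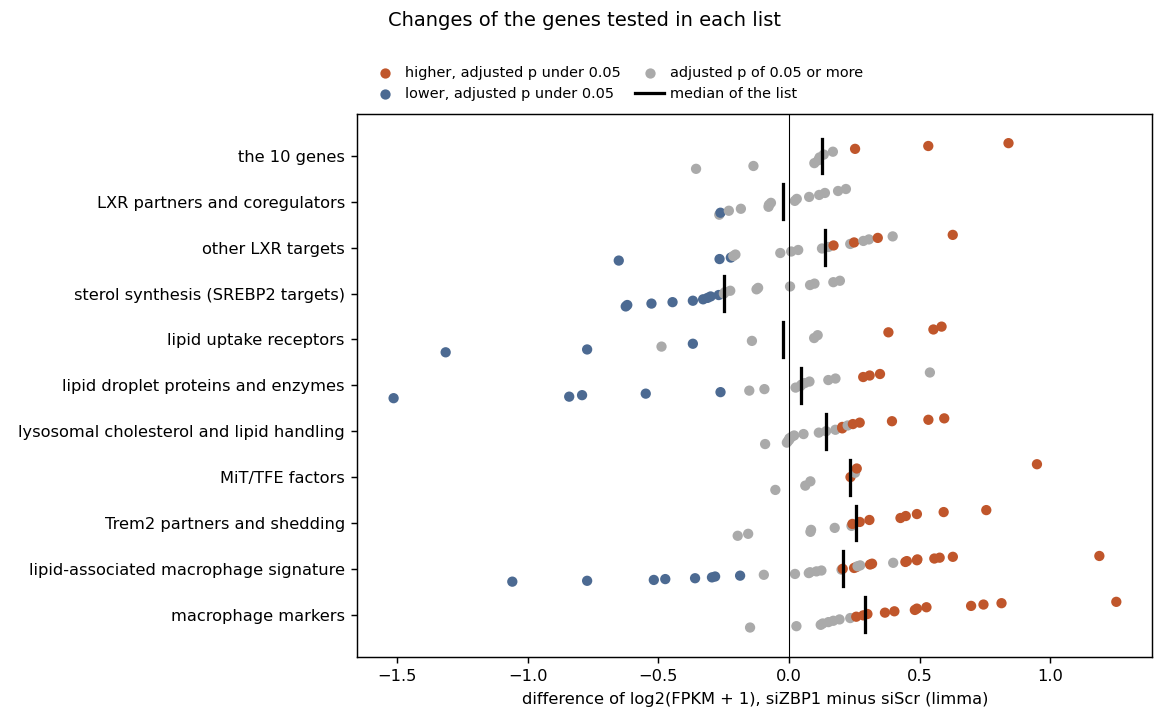
Difference of log2(FPKM + 1) between siZBP1 and siScr cells for each tested gene of 11 lists, 1 point per gene, coloured by the limma call, with a black bar at the median of the list. The sterol synthesis genes lie mostly left of 0 (9 of 19 lower), the Trem2 partners mostly right (8 of 14 higher), and the droplet, uptake and lipid-associated macrophage lists hold calls on both sides.

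A wider signature of lipid-associated macrophages, 31 genes without the members, had 13 genes higher and 8 lower, with a median log2 difference of 0.21. Spp1 rose from 1516 and 2625 FPKM to 4651 and 4447 FPKM (limma adjusted p = 0.0356), with siScr replicates that differed widely from each other. Clec7a, a receptor for fungal glucans, rose by 0.63 on the log2 scale, and the lysosomal protease gene Ctsz by 0.58 (limma adjusted p = 0.00666 and 0.00444). Csf1, a growth factor for macrophages that stromal cells make too, fell by 1.06 and Cd36 by 0.77 on the log2 scale (limma adjusted p = 0.00185 and 0.0110). Tyrobp, Lpl, Cd36, Fabp4, Cd68 and Atp6v0d2 stand in other lists or marker panels as well, Tyrobp and Cd68 among the macrophage markers. Without siScr replicate 1 the signature had 7 genes higher and 6 lower.

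Set among the 20 macrophage markers, Abca1 lay above 19 of them in log2 difference, below Mrc1 only, and Fabp5 lay above 16. Plin2 lay above 8, Lipa above 5, Abcg1 above 4, and Trem2, Gpnmb and Nr1h2 above 2. Nr1h3 lay above 1 marker, Ctss, and Apoe below all 20. Expressed as a share of the summed FPKM of the markers in the same sample, Abca1 was at 0.262% and 0.264% in siScr cells and at 0.342% and 0.352% in siZBP1 cells. Fabp5 was nearly level on this scale, at 4.36% and 4.46% and then at 4.66% and 4.61%. Trem2 was at 2.89% and 2.62% and then at 2.14% and 2.20%, and Apoe at 34.5% and 26.9% and then at 17.6% and 17.0%. These shares depend on the most abundant markers, of which Lyz2 alone went from 2814 and 3647 FPKM to 5871 and 5402 FPKM. No test was made of the shares. The samples were bulk cultures that also expressed mesenchymal markers, and which cells made the RNA of the members was not tested. A share is thus not a level within macrophages.

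**Figure D4:**
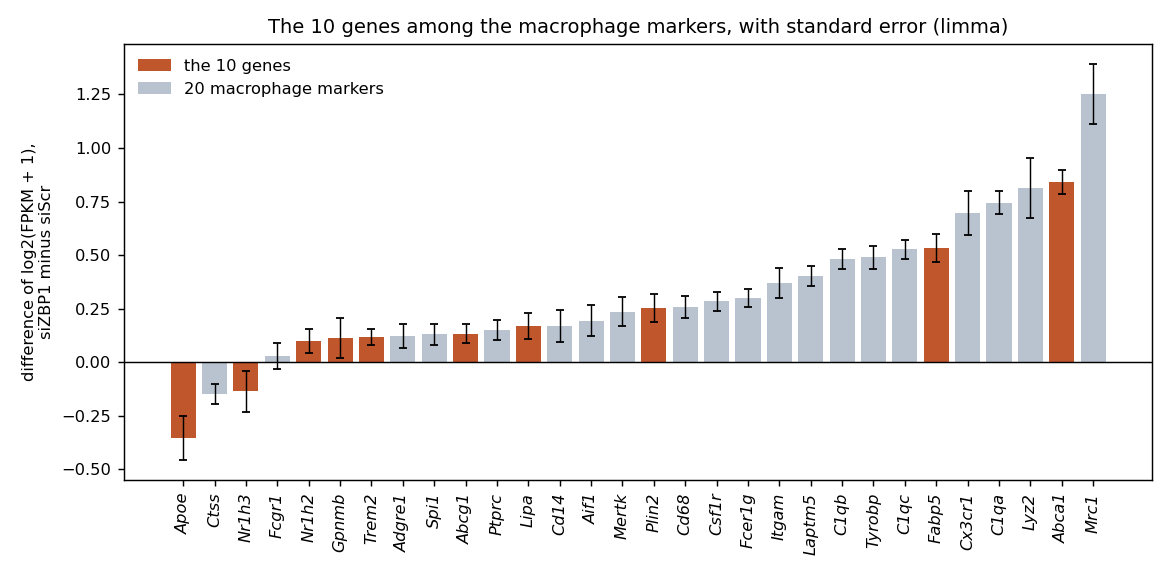
Difference of log2(FPKM + 1) between siZBP1 and siScr cells, with standard error from limma, for the 10 genes (orange) and 20 macrophage markers (grey), in ascending order. Apoe lies at the low end at -0.36, 8 of the 10 genes lie below the marker Cd68, and Abca1 lies second from the high end after Mrc1 at 1.25.

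For the 3 members that rose, the genes with the closest profile over the 4 samples were found among the 8936 genes whose mean reached 5 FPKM, by the root mean square difference of log2(FPKM + 1) after each gene was centred on its own mean. With 4 samples this likeness is a description of the profiles and no more. Closest to Abca1 were Fbln2 (0.0093), Wfdc17 (0.019) and Tlr2 (0.023). Fbln2, a matrix glycoprotein, was at 120 and 131 FPKM in siScr cells and at 229 and 228 FPKM in siZBP1 cells. Closest to Fabp5 were Atp8a1 (0.0063), Rftn1 (0.011) and Tbc1d9 (0.016), and closest to Plin2 were Il6ra (0.0066), Mettl8 (0.0073) and Ppil2 (0.0098).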

How the data were processed

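RNA-seq of 4 mBMSC samples was analysed. The authors deposited FPKM per gene symbol and sample, together with group means that equal those of the replicates and were not used further. Per the methods, TruSeq libraries were aligned with Tophat and FPKM was extracted with HTSeq, while the submitters' processing notes name TopHat and Cufflinks on mm10. The annotation and any filter are not given in the sources used here.

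Differences were tested on log2(FPKM + 1) by limma 3.58.1 in R 4.3.3, with a trend in the variance, two-sided, over the 11959 genes whose mean reached 1 FPKM, and p-values were adjusted over all of them at 0.05. On this scale the change of low genes is understated. For a single gene, 2 samples against 2 allow an exact permutation p of 0.333 at the least, so calls rest on variance shared between genes. The script was tested on simulated data. Members and gene lists were chosen with earlier results of these data known, so no p over a list is given. Named are all members, Zbp1, partners and relatives of members, and up to 5 genes of each list with the largest change. Genes behind counts of 5 or fewer were named after their values were seen. So were Ctss, Mrc1, Cd68, Lyz2, Col1a1, Col1a2, Col3a1, Nt5e and Atp6v0d2 among the markers. Some genes of the lists are not reported here. The 2 symbols present in more than 1 row were kept as separate rows. Positions came from GENCODE M21 on GRCm38, the build also called mm10. Python 3.11.15, numpy 2.4.6, pandas 2.3.3 and matplotlib 3.10.9 were used.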

Additional observations from a re-analysis of the deposited data

How the results depend on the processing

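The 16 alternatives were set with earlier results of these data known. With all samples, Abca1 and Fabp5 stayed past the threshold under all 11 limma alternatives, with adjusted p from 0.000305 to 0.0108 and from 0.00166 to 0.0233, and Plin2 under 9 of 11. The count of members lower was 1 (Apoe) in place of 0 with a pseudocount of 0.1, a mean FPKM of at least 5, quantile normalization, a robust variance estimate, and without small RNA genes. With a sample left out, which leaves 1 in its group that is assumed to vary like the other group, members lower ranged from 0 to 1, members higher from 0 to 3, and members over 1.5-fold higher from 1 to 2, while over all genes between 23 and 1297 were called lower and between 22 and 1019 higher. The low ends came from fits without a siZBP1 replicate. Gpnmb ranged from -0.011, without siScr replicate 1, to 0.24, and Plin2 changed sign to -0.12 after centring on the mean of the macrophage markers, which rose by 0.38 on the same scale. Centred so, Abca1 was at 0.47 and Fabp5 at 0.16, and the other members were below 0. Same-numbered samples showed little shared deviation (correlation of same-numbered deviations -0.063 over 11959 genes). This cannot show whether the samples were paired, which the sources used here do not state. A fit with replicate number as a block gave 1654 genes lower and 1465 higher, with 3 members higher and 0 lower. Read counts were not given, so how far depth limits these calls was not tested.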
